A study of Mus musculus with 30 samples.

Results

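Chemokines are small secreted or membrane-bound proteins that draw leukocytes along a gradient, and their transcripts were followed here through 30 mouse fibrosarcomas. Every protein-coding gene of the count table whose symbol is Ccl or Cxcl followed by a number was taken, together with Cx3cl1, Pf4 and Ppbp. This rule used no measured value and took 38 of the 48440 genes of the table. Ccl19-ps1, Ccl19-ps3 and Cxcl11 match the names but are annotated as pseudogenes and were left out.

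The tumors came from 5 lines of fibrosarcoma, each made from a primary tumor raised with the carcinogen methylcholanthrene, resected, kept in culture and then injected under the skin. The grown tumors were dissociated, depleted of CD45+ leukocytes on beads, and their bulk RNA was sequenced. The study counts MCA-943 (4 tumors) and MCA-969 (8) as lines that resist control by NK1.1+ cells, here called non-sensitive, and MCA-948 (8), MCA-970 (6) and MCA-972 (4) as sensitive ones. For all 30 tumors the labels give growth in mice of the C57BL/6 background and name no treatment. The labels name the mouse strain Ncr1Cre R26DTA for MCA-948, MCA-969, MCA-970 and MCA-972 and the strain Ncr1Cre for MCA-943, without saying whether this is the host or the mouse in which the line arose. The study raised its primary tumors in mice of both genotypes and describes transplanting the cell lines into C57BL/6 mice. In Ncr1Cre R26DTA mice Cre from the Ncr1 gene, which is active in NK cells and other NKp46+ innate lymphoid cells, switches on a diphtheria toxin subunit and so removes these cells. What distinguishes MCA-943 from the other lines therefore cannot be told apart from this difference in the label. Each line goes back to 1 primary tumor, so its tumors share an origin, and the labels do not say which tumors shared an animal, so the p-values measure the spread between these tumors only. The label of W-1D and W-2D of MCA-969 gives the opposite sensitivity, and both were kept with their line.

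Chemokines are grouped by the position of their first cysteines and, for function, by the receptor they bind. Ligands of CXCR2 draw neutrophils, ligands of CCR2 draw monocytes, ligands of CXCR3 draw T cells and NK cells, and CXCL12 holds many cell types through CXCR4. In fibroblasts and fibrosarcoma cells, Cxcl1, Cxcl2, Ccl2 and Ccl7 are known targets of NF-kB signalling, whereas Cxcl9 and Cxcl10 are known targets of interferon signalling.

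Between 27745104 and 46537062 counts were assigned to genes in a tumor, with a median of 35039383. Levels are given as CPM, the count of a gene relative to the TMM-scaled total of its tumor. Of the 38 chemokine genes, 26 had enough counts to be tested, and this filter keeps a gene that is high in 1 line only. The summed level of 8 general leukocyte genes was 25.2 to 112 CPM in MCA-943, 6.38 to 37.8 in MCA-948, 4.52 to 18.4 in MCA-969, 6.55 to 92.1 in MCA-970 and 8.13 to 30.6 in MCA-972, and no gene of this list was at 0 throughout. A list of 9 fibroblast and mesenchyme genes summed to 66933 to 78773 CPM in MCA-943, 15025 to 21544 in MCA-948, 17639.5 to 37724 in MCA-969, 42219 to 51400.3 in MCA-970 and 40989 to 50647.5 in MCA-972, so that these defining genes were abundant in every tumor. In bulk RNA, fewer cells of a type and less RNA per cell cannot be told apart.

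The chemokine transcripts together made up 0.318% of the scaled counts in MCA-943, 0.213% in MCA-972, 0.156% in MCA-970, 0.101% in MCA-969 and 0.0491% in MCA-948. Their sum averaged 3180 CPM in MCA-943 (SD 805, n = 4) against 491 CPM (SD 133, n = 8) for the MCA-948 tumors. The lowest MCA-943 tumor, at 2529 CPM, was above all tumors of the other lines except MCA-972 a-R at 3024 CPM. All 8 tumors of MCA-948 lay between 296 and 644 CPM, a range entered by a-R at 554 and W-2G at 585 CPM among the MCA-969 tumors and by no tumor of the other 3 lines. Per kb of exon, the mean over the 30 tumors was highest for Cxcl1 at 259 CPM per kb, followed by Ccl2 at 243, Cxcl10 at 93.3, Ccl7 at 87.9 and Cxcl12 at 44.9. Next in order of the level per kb came Cxcl2 (26.5 CPM per kb), Cxcl9 (24.9) and Cx3cl1 (17.1), and every other member lay under 9 CPM per kb. At the other end, Ccl21b, Ccl26 and Ccl27b had no count in any tumor.

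**Figure D1:**
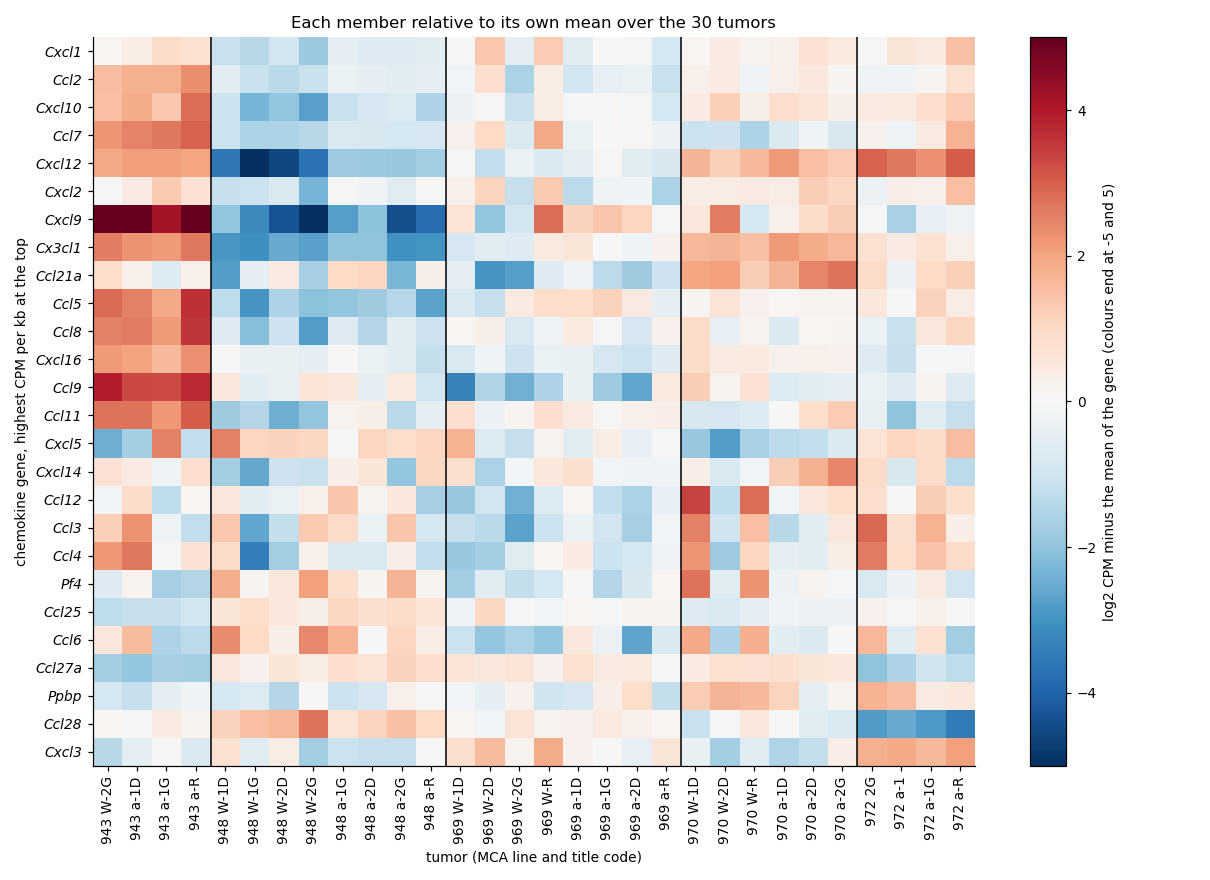
Level of the 26 tested chemokine genes (rows, highest CPM per kb at the top) in the 30 tumors (columns, by line), as log2 CPM minus the mean of the gene over all tumors. The MCA-943 columns are high for Ccl2, Ccl7, Cxcl9, Cxcl10, Ccl5, Ccl8, Cxcl16, Ccl9 and Ccl11, and the MCA-948 columns are low for Cxcl9, Cxcl12, Cx3cl1 and Ccl5.

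Nearly all members differed between the lines, but so did nearly all genes: the F test of edgeR's quasi-likelihood model over the 5 lines passed for 25 of 26 members and for 94.1% of all 16862 genes tested. Cxcl14 was the exception (adjusted p = 0.077). A gene was then called between a pair of lines at an adjusted p-value under 0.05 (Benjamini-Hochberg over all genes) where the log2 fold change reached 1 in either direction, and the share of all genes called is given beside each count of members. MCA-943 had 14 of 26 members higher than MCA-948 (17.7% of all genes) and 4 lower (11.3%), with a median log2 fold change of 1.38 over the members and -0.01 over all genes. Against MCA-969 it had 14 higher (12.1%) and 3 lower (14.9%), with a median of 1.77 over the members and -0.04 over all genes. Against MCA-970 the counts were 10 higher (12.6%) and 5 lower (14.8%), and against MCA-972 they were 11 higher (12.2%) and 3 lower (13.4%). The shares of members higher in MCA-943 were thus above the background in all 4 comparisons, whereas the shares lower were near it.

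MCA-948 had 13 members lower than MCA-970 (19.8% of all genes) and 3 higher (9.64%), and 12 lower than MCA-972 (18.5%) and 3 higher (8.27%). Its median log2 fold change over the members was -1.09 against MCA-970 and -1.04 against MCA-972, where all genes had -0.05 and 0.01. MCA-969 had 10 members higher than MCA-948 (16.8%) and 7 lower (3.91%), so against this line both shares of members were above the background. Against MCA-970 it had 3 higher (10.7%) and 10 lower (10.7%), and against MCA-972 it had 3 higher (10.3%) and 7 lower (10.3%). With the mean level of the leukocyte genes as a covariate, MCA-969 kept 12 of its 17 calls against MCA-948. It kept 7 of 13 against MCA-970 and 10 of 10 against MCA-972. The share of all genes that kept their calls is not given, and the part of leukocytes in these calls was not tested. MCA-970 and MCA-972 differed in the fewest members, with 5 higher in MCA-970 (8.56%) and 4 lower (9.01%). The share of members called higher was above that of all genes in all 10 comparisons. The share called lower was above it in all but MCA-943 over MCA-969 and over MCA-972. These 10 comparisons share their tumors and are not independent of each other.

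**Figure D2:**
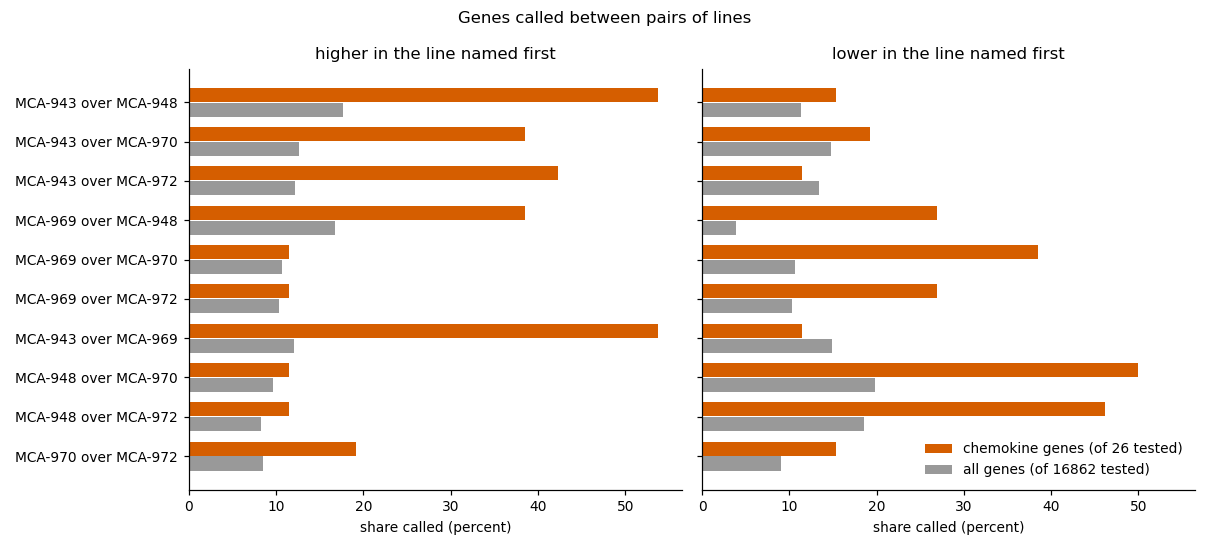
Share of the 26 tested chemokine genes (orange) and of all 16862 tested genes (grey) called higher (left) or lower (right) in the line named first, in percent, for the 10 pairs of lines. On the left the orange bar is the longer one in all 10 pairs, by most in the 4 comparisons of MCA-943. On the right it is the shorter one only for MCA-943 over MCA-969 and over MCA-972, and it is longest where MCA-948 is set against MCA-970 and MCA-972.

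Counted over the lines, 9 of 26 members were called higher in MCA-943 than in each of the 4 other lines (4.26% of all genes) and 0 lower than in each (3.45%). The 9 were the monocyte and leukocyte attractants Ccl2, Ccl7, Ccl8, Ccl5 and Ccl9, the eosinophil attractant Ccl11, and Cxcl9, Cxcl10 and Cxcl16. MCA-948 had 7 members lower than in each other line (5.68%), namely Cxcl1, Cxcl9, Cxcl10, Cxcl12, Cx3cl1, Ccl5 and Ccl8, and 1 higher (0.753%), Ccl28. The remaining lines stood apart in single members. The libraries were numbered in 3 runs, called library series here. MCA-969 had 2 lower (0.516%), Ccl3 and Ccl21a, and 0 higher (2.23%). For Ccl21a this rests on MCA-969 over MCA-948 (-1.15 ± 0.46), which lost its call with limma-voom (-0.87), with the library series as a covariate (-0.71) and without any of 7 single tumors, and on MCA-943 over MCA-969 (1.42 ± 0.54), which lost it with the series (0.85) and without W-2G of MCA-943 (1.17). MCA-970 had 1 lower (1.03%), Cxcl5, and 0 higher (1.59%). MCA-972 had 1 higher (2.47%), Cxcl3, and 1 lower (1.1%), Ccl28. With the series as a covariate, 4 of the 9 members of MCA-943 (Ccl5, Ccl8, Ccl9 and Cxcl16) and 1 of the 7 of MCA-948 (Cx3cl1) were still called against every other line. Some of the lost calls kept their log2 fold change, such as Ccl7 of MCA-943 over MCA-972 (1.86, and 1.91 with the covariate), Cxcl10 there (1.19 and 1.55) and Ccl11 over MCA-969 (2.34 and 2.28). Others fell, such as Ccl5 of MCA-969 over MCA-948, from 2.29 to 0.97. MCA-943 shares a series with MCA-948 only. Within it, all 13 members described below that were called between these lines kept their direction and an adjusted p under 0.05. With the mean level of the leukocyte genes as a covariate, all 9 members of MCA-943 stayed called and 6 of the 7 of MCA-948, all but Cxcl1, which was also lost when W-1D and W-2D of MCA-969 were left out.

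The members that reached a mean of 10 CPM in at least 1 line, 14 in number, are described below by receptor, with their position on GRCm38 and their values over the tumors. For lines of more than 5 tumors the lowest, the median and the highest value are given.

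**Figure D3:**
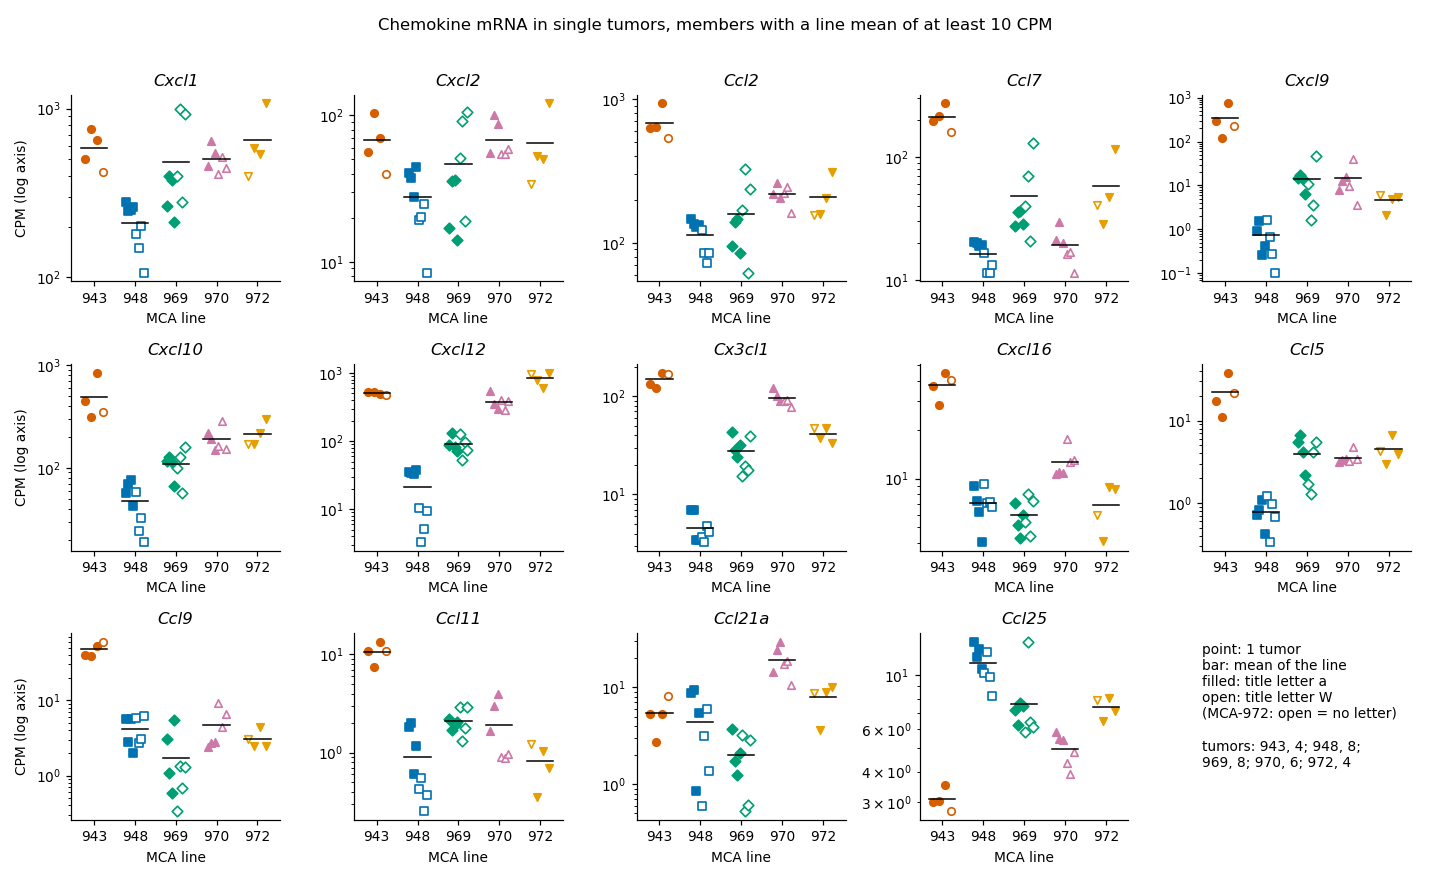
CPM of the 14 most abundant members in every tumor, by line, on log axes. Each point is 1 tumor and the bar is the mean of the line. Filled points have the title letter a and open points W, except the open point of MCA-972, which has no letter. MCA-943 points lie above those of all other lines for Cxcl9, Ccl9, Cxcl16 and Ccl11, and in MCA-948 the open Cxcl12 points lie below the filled ones.

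The ligands of CXCR2, Cxcl1, Cxcl2, Cxcl3, Cxcl5 and Ppbp, lie together on chromosome 5, and Cxcl1 and Cxcl2 were the members of the 14 with the smallest ratio between the highest and the lowest line mean, 3.10 and 2.46. Their promoters are shown because Cxcl1 and Cxcl2 rose and fell together over the MCA-969 tumors (described below) and Cxcl3 carries the same motif. The 250 bases before the transcription start are given 5′ to 3′ on the strand of the gene, from RefSeq on GRCm38.p6, with matches to the NF-kB consensus in capitals.
Cxcl1 (chr5:90890995-90891244, plus strand): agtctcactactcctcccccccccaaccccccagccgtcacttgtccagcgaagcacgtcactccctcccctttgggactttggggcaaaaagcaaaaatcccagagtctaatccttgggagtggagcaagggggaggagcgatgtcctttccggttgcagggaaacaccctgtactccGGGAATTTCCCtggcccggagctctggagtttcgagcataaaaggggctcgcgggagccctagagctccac
Cxcl2 (chr5:90903649-90903898, plus strand): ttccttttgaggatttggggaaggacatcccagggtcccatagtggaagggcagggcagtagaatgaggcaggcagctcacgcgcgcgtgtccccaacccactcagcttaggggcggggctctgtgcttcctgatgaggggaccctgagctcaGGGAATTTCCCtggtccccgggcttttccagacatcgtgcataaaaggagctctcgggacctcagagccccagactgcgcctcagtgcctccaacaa
Cxcl3 (chr5:90785851-90786100, plus strand): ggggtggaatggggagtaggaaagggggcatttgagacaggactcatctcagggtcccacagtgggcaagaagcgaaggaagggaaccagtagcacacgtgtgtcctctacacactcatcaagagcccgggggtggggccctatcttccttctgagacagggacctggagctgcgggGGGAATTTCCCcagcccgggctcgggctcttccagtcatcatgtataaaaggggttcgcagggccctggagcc
Each of the 3 promoters held the same run, GGGAATTTCCC, which holds overlapping matches on both strands, starting 71 (Cxcl1), 97 (Cxcl2) and 73 (Cxcl3) bases before the start. Cxcl3 was shown for its match, so that its match is not a result. The consensus was found in the same window of 3.9% of all 32851 promoters of the table, on either strand. Of the 25 members with 1 promoter in the table, 6 held it, and the window of Ppbp held none. A match is a stretch of letters and no evidence of binding.

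Cxcl1 (chr5:90891241-90893115), a main attractant of neutrophils, reached 421 (W-2G), 501 (a-1D), 655 (a-R) and 761 CPM (a-1G) in the MCA-943 tumors and 400 (2G), 540 (a-1G), 586 (a-1) and 1073 CPM (a-R) in those of MCA-972. In MCA-969 it ran from 212 over a median of 387 to 991 CPM, in MCA-970 from 413 over 488 to 641 CPM, and in MCA-948 from 106 over 225 to 278 CPM. All 8 MCA-948 tumors were below every tumor of MCA-943, MCA-970 and MCA-972, while the MCA-969 tumors spread over the range of all lines. In MCA-969 the wide spread came from W-R at 927 and W-2D at 991 CPM against 399 CPM in the next tumor. MCA-948 was lower than MCA-943 by 1.48 ± 0.32 (SE) on the log2 scale (adjusted p = 0.00021, edgeR), and no pair among the other lines was called. MCA-969 over MCA-948 (1.20 ± 0.28) fell to 0.99 without W-R and to 0.96 without W-2D, under the fold limit of the call.

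Cxcl2 (chr5:90903871-90905938), a further neutrophil attractant, was less abundant, at 39.9 (W-2G), 56.0 (a-1D), 70.1 (a-R) and 104 CPM (a-1G) in MCA-943. Its range was 8.38 to 44.2 CPM in MCA-948 (median 26.3), 14.1 to 105 in MCA-969 (36.0), 54.2 to 100.2 in MCA-970 (57.1), and in MCA-972 the tumors had 34.2 (2G), 50.5 (a-1G), 52.9 (a-1) and 121 CPM (a-R). The lines overlapped more than for Cxcl1, and MCA-948 alone was called, against MCA-943 (1.28 ± 0.44, adjusted p = 0.013), MCA-970 (-1.30 ± 0.40) and MCA-972 (-1.22 ± 0.44). None of the 3 calls was stable: the first was 0.93 without a-1G of MCA-943, the second -0.93 with the library series as a covariate, and the third -0.72 without a-R of MCA-972 and -1.77, not called, with the series. Cxcl5, which also acts on CXCR2, had line means of 4.73, 6.86, 3.28, 0.997 and 6.13 CPM in MCA-943, MCA-948, MCA-969, MCA-970 and MCA-972, with 16.4 CPM in MCA-943 a-1G against at most 1.18 in the other 3 tumors of that line. Cxcl3 was under 1 CPM on average in every line but MCA-972 (1.44 CPM), and Ppbp, the platelet basic protein, was at 0.131 to 0.602 CPM. The receptor Cxcr2 was too low to be tested, with line means of at most 0.132 CPM, and those of Ly6g, a defining gene of neutrophils, were at most 0.0903 CPM.

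The ligands of CXCR3 set MCA-943 apart most. Cxcl9 and Cxcl10, both known for induction by interferon gamma, lie next to each other on the minus strand of chromosome 5, and their promoters are shown because the genes shared the order of the lines at its ends, MCA-943 highest and MCA-948 lowest. In the 250 bases before the start, capitals mark matches to ISRE (GAAA, any 2 bases, GAAA), to GAS (TTC, any 3 bases, GAA) and to the NF-kB consensus, searched on both strands.
Cxcl10 (chr5:92348890-92349139, minus strand): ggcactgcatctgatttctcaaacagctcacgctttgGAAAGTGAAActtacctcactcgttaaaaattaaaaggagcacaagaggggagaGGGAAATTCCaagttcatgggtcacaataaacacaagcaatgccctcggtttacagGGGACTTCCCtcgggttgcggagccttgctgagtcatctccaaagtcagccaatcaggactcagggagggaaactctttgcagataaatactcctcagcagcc
Cxcl9 (chr5:92328080-92328329, minus strand): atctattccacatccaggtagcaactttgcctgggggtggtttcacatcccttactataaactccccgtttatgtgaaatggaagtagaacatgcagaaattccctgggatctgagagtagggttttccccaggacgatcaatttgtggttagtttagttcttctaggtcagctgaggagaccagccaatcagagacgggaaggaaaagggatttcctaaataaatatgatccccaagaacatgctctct
Cxcl10 held 1 match to ISRE, GAAAGTGAAA, starting 213 bases before the start and 2 to NF-kB, starting 159 and 103 bases before it. ISRE was found in 2.98% and GAS in 7.02% of all promoters in the table. The Cxcl9 window held none of the 3, which says only that these letters are not in it.

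Cxcl9 (chr5:92321347-92328079) had 118 (a-1G), 220 (W-2G), 288 (a-1D) and 737 CPM (a-R) in the MCA-943 tumors. It had 0.101 to 1.67 CPM in MCA-948 (median 0.549), 1.64 to 46.0 in MCA-969 (12.3), 3.54 to 39.9 in MCA-970 (11.2), and 2.13 (a-1), 5.01 (a-1G), 5.54 (a-R) and 6.18 CPM (2G) in MCA-972. The lowest MCA-943 tumor was thus above the highest tumor of any other line, and the highest MCA-948 tumor overlapped MCA-969 W-2D alone. The log2 fold change of MCA-943 was 8.81 ± 0.75 over MCA-948 (adjusted p = 2.8e-11), 4.58 ± 0.61 over MCA-969, 4.53 ± 0.68 over MCA-970 and 6.18 ± 0.88 over MCA-972. With the library series as a covariate the last 3 values were 4.39, 3.13 and 6.24 and not called, whereas within the series that MCA-943 shares with MCA-948 the value was 8.55 ± 0.67 (adjusted p = 1.1e-06). The leukocyte genes summed to 25.2 (a-1G), 31.3 (a-R), 88.5 (a-1D) and 112 CPM (W-2G) in the MCA-943 tumors. The part of leukocytes in the level of Cxcl9 was not tested.

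Cxcl10 (chr5:92346638-92348889) had 314 (a-1G), 353 (W-2G), 445 (a-1D) and 844 CPM (a-R) in MCA-943, and 169 (2G), 170 (a-1), 218 (a-1G) and 299 CPM (a-R) in MCA-972. It ran from 18.9 over 49.4 to 75.6 CPM in MCA-948, from 57.3 over 114 to 159 in MCA-969 and from 150 over 176 to 283 in MCA-970. Again every MCA-943 tumor was above all others, but the ratio between the line means was smaller than for Cxcl9: 10.4 from MCA-943 to MCA-948, against 465 for Cxcl9. MCA-943 exceeded MCA-972 by 1.19 ± 0.37 (adjusted p = 0.0073) and MCA-970 by 1.35 ± 0.33. Without tumor a-R of MCA-943 these became 0.79 and 0.95, under the fold limit. The gene Art3 overlaps Cxcl10 on the other strand, and whether the counting used strand is not stated in the sources used here. The receptor Cxcr3 was not testable, with line means of at most 0.191 CPM.

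The ligands of CCR2, Ccl2, Ccl7 and Ccl12, attract monocytes and form a cluster on chromosome 11 with Ccl8 and Ccl11. Ccl2 (chr11:82035571-82037453) had 534 (W-2G), 627 (a-1D), 641 (a-1G) and 930 CPM (a-R) in MCA-943 and 155 (2G), 158 (a-1), 204 (a-1G) and 313 CPM (a-R) in MCA-972. Its range was 72.7 to 146 CPM in MCA-948 (median 126), 61.8 to 328 in MCA-969 (143) and 161 to 263 in MCA-970 (220). All MCA-943 tumors stood above all others, and among the other lines no pair was called. The log2 fold change of MCA-943 was 2.59 ± 0.29 over MCA-948 (adjusted p = 7e-09), 2.11 ± 0.29 over MCA-969, 1.64 ± 0.31 over MCA-970 and 1.72 ± 0.36 over MCA-972, and the last of these was not called with the library series as a covariate (1.03).

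Ccl7 (chr11:82045712-82047525), the neighbour of Ccl2, reached 158 (W-2G), 195 (a-1D), 215 (a-1G) and 271 CPM (a-R) in MCA-943 and 28.7 (a-1), 40.7 (2G), 47.6 (a-1G) and 115 CPM (a-R) in MCA-972. It ran from 11.5 over 17.8 to 20.4 CPM in MCA-948, from 20.9 over 35.9 to 130 in MCA-969 and from 11.5 over 18.5 to 29.7 in MCA-970. Here MCA-970, which had the second highest mean of Ccl2, lay with MCA-948 at the bottom (-0.23 ± 0.33 for MCA-948 over MCA-970, not called), and MCA-969 and MCA-972 lay between them and MCA-943. MCA-969 over MCA-970 (1.34 ± 0.34) was 0.94 without W-R of MCA-969. Ccl12 was the low member of the group, with line means of 0.251 (MCA-969) to 2.08 CPM (MCA-970). The receptor Ccr2 had line means of 0.406 to 5.91 CPM and was called higher in MCA-943 than in MCA-948 and MCA-969.

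Cxcl12 (chr6:117168535-117181367), the ligand of CXCR4 that stromal cells make, followed another order, with MCA-972 at the top and MCA-948 at the bottom. It had 603 (a-1G), 782 (a-1), 955 (2G) and 1012 CPM (a-R) in MCA-972, and 471 (W-2G), 489 (a-R), 525 (a-1D) and 533 CPM (a-1G) in MCA-943. The range was 286 to 546 CPM in MCA-970 (median 369), 53.2 to 131 in MCA-969 (85.9) and 3.30 to 38.1 in MCA-948 (21.8). The tumors of MCA-948, MCA-969 and the other 3 lines formed 3 ranges that did not overlap. The log2 fold change of MCA-972 over MCA-948 was 5.31 ± 0.43 in the direction of MCA-972 (adjusted p = 1.7e-11), and MCA-969 lay 2.11 ± 0.36 above MCA-948, which became 1.35 (adjusted p = 0.13) with the library series as a covariate. MCA-943 and MCA-970 did not pass the test against each other (0.41 ± 0.43, adjusted p = 0.42), nor did MCA-943 and MCA-972 (-0.73 ± 0.48, adjusted p = 0.20). MCA-970 over MCA-972 (-1.14 ± 0.43, adjusted p = 0.029) was called but lost the call with the library series as a covariate at the same fold (-1.14, adjusted p = 0.20), without a filter on low counts (-1.10) and without any of 4 single tumors. Cxcr4 had its highest mean in MCA-970, at 24.6 CPM, and Ackr3, the scavenging receptor of CXCL12, had line means of 25.5 CPM in MCA-943 and 48.6 to 84.1 CPM in the others.

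Cx3cl1 (chr8:94772009-94782427), a membrane-bound chemokine that can be shed, was the member with the smallest p of the F test over the lines (adjusted p = 2.9e-16). Its values were 123 (a-1G), 132 (a-1D), 167 (W-2G) and 174 CPM (a-R) in MCA-943, 33.8 (a-R), 37.5 (a-1), 47.1 (a-1G) and 47.9 CPM (2G) in MCA-972, 78.5 to 123 in MCA-970 (median 90.1), 15.5 to 43.1 in MCA-969 (25.98) and 3.27 to 6.96 in MCA-948 (3.94). Neighbouring lines touched only between MCA-943 and MCA-970 and between MCA-972 and MCA-969. MCA-948 was lower than MCA-969 by 2.57 ± 0.20 on the log2 scale (adjusted p = 1.3e-11), and it was the member whose call in MCA-948 against every line was kept with the library series as a covariate. The receptor Cx3cr1 had line means of 0.974 to 4.97 CPM.

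Cxcl16 (chr11:70453983-70459984), the membrane-bound ligand of CXCR6, had 28.3 (a-1G), 37.0 (a-1D), 40.7 (W-2G) and 45.1 CPM (a-R) in MCA-943. All other tumors had 4.06 to 17.5 CPM, with medians of 7.13 in MCA-948, 5.68 in MCA-969, 11.8 in MCA-970 and 7.26 in MCA-972. MCA-943 was higher by 2.41 ± 0.19 than MCA-948 (adjusted p = 5.2e-12), 2.67 ± 0.19 than MCA-969, 1.59 ± 0.21 than MCA-970 and 2.45 ± 0.24 than MCA-972. Its receptor Cxcr6 was also called higher in MCA-943 than in each other line, with a mean of 5.29 CPM against 0.22 to 1.27 CPM. Zmynd15 overlaps Cxcl16 on the other strand.

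Of the macrophage inflammatory protein group and its relatives, Ccl3, Ccl4, Ccl5, Ccl6 and Ccl9, which attract monocytes and T cells, Ccl9 and Ccl5 passed 10 CPM, in MCA-943 only. Ccl9 (chr11:83572919-83578636), a chemokine of myeloid cells, had 38.3 (a-1G), 39.4 (a-1D), 53.2 (a-R) and 59.9 CPM (W-2G) there, and all other tumors had 0.335 to 9.23 CPM, with medians of 4.30 (MCA-948), 1.20 (MCA-969), 3.61 (MCA-970) and 2.79 (MCA-972). Ccl5 (chr11:83525778-83530518), made by T cells, NK cells and stimulated fibroblasts, had 11.2 (a-1G), 17.4 (a-1D), 21.4 (W-2G) and 38.2 CPM (a-R) in MCA-943, 0.336 to 1.22 in MCA-948, 1.30 to 6.66 in MCA-969, 3.17 to 4.78 in MCA-970 and 2.98 to 6.75 in MCA-972. For both genes every MCA-943 tumor lay above all others, and for Ccl5 every MCA-948 tumor lay below all others. The log2 fold change of MCA-943 over MCA-948 was 3.50 ± 0.45 for Ccl9 and 4.79 ± 0.36 for Ccl5 (adjusted p = 2e-12). The T cell genes Cd3e, Cd3d and Cd3g, which could accompany Ccl5 from T cells, had line means of at most 0.446 CPM, reached in MCA-943, and were not tested, while the 10 genes of the T cell list summed to 3.93 to 10.8 CPM in MCA-943 against 0.682 to 5.89 in the other lines. The part of residual leukocytes in these levels was not tested. Ccl3 (0.294 to 2.33 CPM), Ccl4 (0.348 to 1.90) and Ccl6 (0.445 to 2.43) stayed low in the line means.

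The low members Ccl3, Ccl4, Ccl6 and Ccl12 and Pf4, all known from macrophages, differed widely between tumors of a line. In MCA-970 the tumors W-1D and W-R held the 2 highest values of each. Ccl12 had 6.01 CPM in W-1D and 3.97 in W-R against 0.184 to 1.02 in the other 4 tumors, and Pf4 had 4.93 and 3.54 CPM against 0.442 to 0.807. Ccl3 had 3.95 and 1.92 CPM against 0.209 to 0.968, Ccl4 had 2.67 and 1.19 against 0.110 to 0.702, and Ccl6 had 3.34 and 3.15 against 0.258 to 0.871. The 12 macrophage and monocyte genes summed to 431 and 252 CPM in these tumors and to 26.2 to 71.6 CPM in the others of the line. Ccl3 and Ccl4 were also highest in the MCA-943 tumor a-1D (3.23 and 3.55 CPM), which had the highest macrophage sum of that line at 153 CPM. In MCA-972 they were highest in 2G (5.08 and 3.49 CPM), where this sum was 48.8 CPM and 107 CPM was reached in a-1G. These values are a description of single tumors, and the part of the macrophages was not tested.

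Ccl11 (chr11:82057823-82062955), the eotaxin gene, a ligand of CCR3 made by fibroblasts, had 7.41 (a-1G), 10.8 (W-2G), 10.9 (a-1D) and 13.5 CPM (a-R) in MCA-943, and at most 3.99 CPM in any other tumor. Its line means were 0.9 (MCA-948), 2.09 (MCA-969), 1.90 (MCA-970) and 0.832 CPM (MCA-972), and MCA-943 was higher than MCA-948 by 3.55 ± 0.43 (adjusted p = 2.6e-08). Ccl8, which binds CCR8 in the mouse, had a mean of 9.14 CPM in MCA-943 and 0.543 to 1.51 CPM in the other lines. It was called in 7 of the 10 pairs, all those with MCA-943 or MCA-948. Ccr3 and Ccr8, the receptors of Ccl11 and Ccl8, had line means of at most 0.117 and 0.0449 CPM.

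Ccl21a (chr4:42772860-42773993), a ligand of CCR7 that lymphatic endothelium makes, was highest in MCA-970 at 10.5 to 29.7 CPM (median 18.1). It had 2.72 (a-1G), 5.31 (a-R), 5.33 (a-1D) and 8.20 CPM (W-2G) in MCA-943, 3.66 (a-1), 8.73 (2G), 9.0 (a-1G) and 10.2 CPM (a-R) in MCA-972, 0.599 to 9.38 in MCA-948 (4.28) and 0.53 to 3.72 in MCA-969 (1.93). MCA-970 lay above all tumors of the other lines, and MCA-969 over MCA-970 was -3.26 ± 0.50 (adjusted p = 2.5e-06), while MCA-970 over MCA-972 missed the threshold (1.28 ± 0.59, adjusted p = 0.072). The 4 lymphatic genes, of which Pdpn made up most, summed to 294 to 435 CPM in MCA-970, within the range of MCA-969 at 213 to 493. The number of them called higher in MCA-970 was 3 against MCA-943 (14.8% of all genes) and 3 against MCA-948 (19.8%). It was 3 against MCA-969 (10.7%) and 0 against MCA-972 (8.56%). The 9 endothelial genes summed to 283 to 560 CPM in MCA-970 and 27.5 to 505 elsewhere. Their part in the level of Ccl21a was not tested. Ccl21a has nearly identical copies, Ccl21b among them, between which reads may be split, and 4930578G10Rik overlaps it on the other strand, so its level is uncertain.

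Ccl25 (chr8:4325210-4360020), the CCR9 ligand known from thymus and gut, was the abundant member that ran against the others, lowest in MCA-943 and highest in MCA-948. It had 2.74 (W-2G), 3.01 (a-1D), 3.02 (a-1G) and 3.53 CPM (a-R) in MCA-943, 8.22 to 13.7 in MCA-948 (median 11.3), 5.83 to 13.7 in MCA-969 (6.80), 3.90 to 5.80 in MCA-970 (5.12) and 6.47 (a-1), 7.10 (a-R), 7.87 (2G) and 8.05 CPM (a-1G) in MCA-972. Every MCA-943 tumor lay below all others, and MCA-943 over MCA-948 was -1.86 ± 0.19 (adjusted p = 9.5e-10). Its length in the table is 7445 bases, so its level per kb was only 0.919 CPM, and Elavl1, an RNA-binding protein gene, overlaps it on the other strand. The ligands of CCR10 were likewise not highest in MCA-943. Ccl28 had means of 1.02, 2.69, 1.07, 0.760 and 0.0721 CPM from MCA-943 to MCA-972 in the order of their numbers, called in 7 of 10 pairs, and Ccl27a had 0.426, 2.52, 2.19, 2.45 and 0.550 CPM, called in 6. Il11ra1 overlaps Ccl27a.

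Among the members without a receptor group, Cxcl14 had line means of 2.11 to 6.16 CPM and Pf4, the platelet factor that macrophages also make, 0.416 to 1.83 CPM. The 12 members that were not tested (Ccl1, Ccl17, Ccl19, Ccl20, Ccl21b, Ccl22, Ccl24, Ccl26, Ccl27b, Cxcl13, Cxcl15 and Cxcl17) had at most 14 counts in any tumor and line means of at most 0.231 CPM. A count of 0 in a tumor allows a level of up to 0.0792 to 0.0908 CPM on average over the tumors of a line, taking 3 counts as the limit, which covers counting error only. Cxcl13, the B cell attractant, had counts in 28 tumors, and Ccl20, the ligand of CCR6, in 13.

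The study set non-sensitive against sensitive lines. When MCA-943 and MCA-969 were each set against MCA-948, MCA-970 and MCA-972, edgeR called 0 of 26 members with 1 direction throughout the 6 comparisons, against 0.878% of all genes, a share so low that 0 of 26 is not a result about the members. At an unadjusted p under 0.05 the count was also 0, against 800 of the 16862 genes, and DESeq2 and limma-voom each gave 0. By sign alone 1 member was higher and 3 were lower in all 6. For most members the non-sensitive lines lay far apart: MCA-943 exceeded MCA-969 in 14 members, and the members lower in MCA-969 than in MCA-970 included Cxcl12, Cx3cl1, Cxcl16, Ccl9 and Ccl21a. With the mean level of the leukocyte genes as a covariate, Ccl9 (-0.77) and Cxcl16 (-0.87) lost this call against MCA-970. Cxcl16 also lost it with the library series as a covariate (-0.91) and without W-1D of MCA-970 (-0.96). Leaving W-1D and W-2D out of MCA-969 also gave 0.

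Tumor names hold the letter W or a, whose meaning is not stated in the sources used here, so tumors were compared by letter within lines as a description of single tumors. Over the 26 tumors of the 4 lines that have both letters, 0 of 26 members were called by edgeR against 0.23% of the 16557 genes tested. At an unadjusted p under 0.05 there were 4 (Ccl11, Cxcl12, Cxcl14 and Cx3cl1) against 1217 of all genes, and DESeq2 called 0. Lines taken by themselves, an alternative chosen after the values had been seen, gave 2 of 26 members in MCA-948 (0.368% of all genes), 0 in MCA-969 (0.00604%), 0 in MCA-970 (0.163%) and 0 in MCA-943 (0%), which has 1 W tumor.

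In MCA-948 the difference was largest for Cxcl12. The 4 W tumors had 3.30 (W-1G), 5.19 (W-2D), 9.47 (W-2G) and 10.3 CPM (W-1D), and the 4 a tumors had 33.3 (a-2G), 34.0 (a-2D), 35.3 (a-1G) and 38.1 CPM (a-R). The ranges did not overlap, and W over a was -2.30 ± 0.31 on the log2 scale (adjusted p = 0.00096, edgeR), or 4.92 times more in the a tumors. Leaving out each MCA-948 tumor in turn gave -2.54 to -2.07, called in 8 of 8 fits. All W tumors and the a tumors a-1G and a-2D are of the same library series, and with the series as a covariate the value was -2.29 (adjusted p = 0.0072). Ccl11, the other member called, had 0.253 to 0.550 CPM in the W tumors and 0.600 to 1.99 in the a tumors (-1.80 ± 0.37, adjusted p = 0.030), but the call was kept in only 2 of 8 fits with a tumor left out. In MCA-970 it had 0.883 to 0.978 CPM in the 3 W tumors and 1.64 to 3.99 in the 3 a tumors, without passing the test (-1.67 ± 0.40, adjusted p = 0.12, edgeR). Endothelial genes summed to 27.5 to 137 CPM in the W tumors and 53.7 to 505 in the a tumors of MCA-948, and fibroblast genes to 15025 to 18533 against 17956 to 21544 CPM, with overlap of the letters in both sums. Their part in Cxcl12 was not tested. In MCA-969 and MCA-970 Cxcl12 differed by -0.09 ± 0.28 and -0.17 ± 0.32. The test of whether the letter difference of Cxcl12 varies over the lines gave an unadjusted p of 6.3e-05 and an adjusted p of 0.069 (edgeR), and 0 of 26 members passed that test after adjustment, against 3 of the 16557 genes. At an unadjusted p under 0.05 there were 9 members and 1701 genes.

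**Figure D4:**
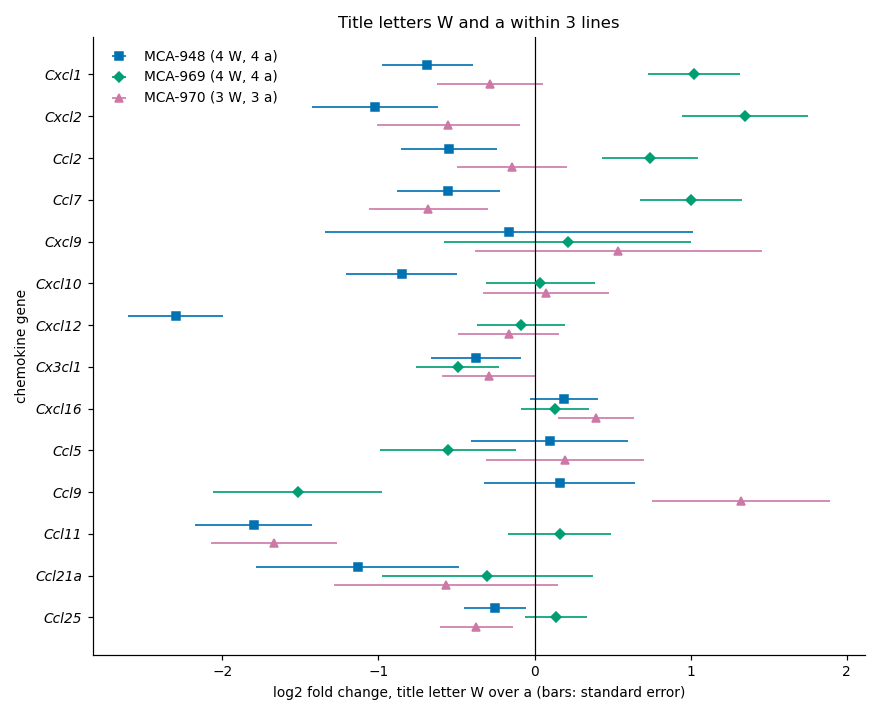
Log2 fold change of the title letter W over a within MCA-948, MCA-969 and MCA-970 for the 14 most abundant members, with bars for the standard error. Cxcl12 in MCA-948 lies at -2.30, and Cxcl1, Cxcl2, Ccl2 and Ccl7 lie left of 0 in MCA-948 and right of 0 in MCA-969, where none of the 4 was called.

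Relations between members from tumor to tumor were examined within lines. For the 91 pairs of the 14 members in each of MCA-948, MCA-969 and MCA-970, 273 relations in all, Pearson's r of log2 CPM had a median of 0.39 in MCA-948, 0.20 in MCA-969 and 0.10 in MCA-970, and was above 0 in 74, 56 and 50 of the 91 pairs. After Benjamini-Hochberg adjustment of exact permutation p-values, 6 relations passed, 3 in MCA-948, 3 in MCA-969 and 0 in MCA-970, and 34 passed at an unadjusted p under 0.05. With the 6 tumors of MCA-970 the exact permutation p cannot be under 0.00139. A single relation in MCA-970, however strong, could therefore not pass beside these 6, and the 0 there is not a difference between lines. Spearman's rho gave adjusted p-values of 0.078 or above throughout. In MCA-969 Cxcl1 and Cxcl2 had r = 0.97 (rho = 0.95, exact permutation p = 0.00025, adjusted 0.034), Ccl2 and Cxcl1 had r = 0.92 (rho = 0.90, adjusted exact p = 0.042) and Ccl7 and Cxcl2 had r = 0.90 (rho = 0.90, adjusted exact p = 0.037). Without the 2 tumors farthest from the median of the member named first these were 0.96, 0.96 and 0.80, and within the 6 tumors of the larger library series 0.99, 0.88 and 0.92. The 3 relations that passed in MCA-948 joined Ccl2 and Ccl7, Cxcl1 and Cxcl2, and Ccl7 and Cxcl12. No r is given for them, because the ranges of the W and a tumors did not overlap for any of these members, and 4 tumors of a letter are too few to test within it. In MCA-970 Cxcl1 and Cxcl2 had r = 0.86 (rho = 0.60, exact p = 0.022, adjusted 0.32), or 0.66 without the 2 farthest tumors.

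**Figure D5:**
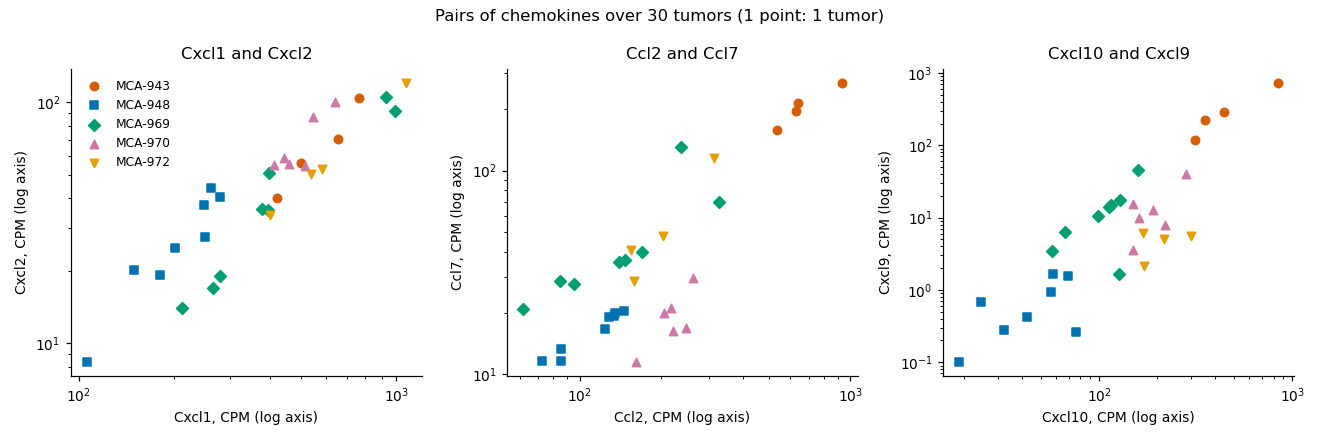
Cxcl2 against Cxcl1, Ccl7 against Ccl2 and Cxcl9 against Cxcl10 in CPM on log axes, 1 point for each of the 30 tumors, coloured by line. In the left panel the MCA-969 points rise together, the MCA-970 points of the middle panel lie below those of MCA-969 and MCA-972 at a like Ccl2 level, and the MCA-943 points lie at the upper right of the right panel.

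Relations of the 14 members with marker lists of leukocytes, macrophages, T cells, NK cells and ILC1, endothelial cells and fibroblasts were tested in the same way. Of 252 relations within the same 3 lines, 0 passed after adjustment of exact permutation p-values (lowest 0.175) and 32 passed at an unadjusted p under 0.05. Because of the same lower limit of the exact permutation p with 6 tumors, 0.00139, a single relation in MCA-970 could not pass here either. The relations named here are those of Ccl9 with the macrophage list in MCA-948 (r = 0.94, rho = 0.88, exact permutation p = 0.0021, adjusted 0.175) and with the leukocyte list there (r = 0.91), and of Cxcl16 with the NK cell and ILC1 list in MCA-970 (r = 0.86, rho = 1, exact permutation p = 0.0014, adjusted 0.175). Without the 2 tumors farthest from the median of the list they were 0.97, 0.95 and 0.99.

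The genes that receive or induce chemokines were taken from fixed lists. Of 18 chemokine receptor genes 8 were tested, and 4 of them were called higher (17.7% of all genes) and 0 lower (11.3%) in MCA-943 than in MCA-948. In MCA-943 5 were higher (12.1%) and 1 lower (14.9%) than in MCA-969. Against MCA-970 there were 2 higher (12.6%) and 1 lower (14.8%), and against MCA-972 1 higher (12.2%) and 0 lower (13.4%). The summed level of the receptor list was 10.3 to 42.3 CPM in MCA-943 and 7.43 to 65.1 CPM in the other lines, far below that of the ligands. Of 5 atypical receptors, which take up chemokines without signalling to migration, Ccrl2 was called higher in MCA-943 than in each other line (9.45 CPM against 1.38 to 3.17). The other atypical receptors went otherwise. In MCA-943, 4 were called lower than in MCA-970 (14.8% of all genes) and 3 lower than in MCA-972 (13.4%). Against MCA-969 3 were lower (14.9%), and against MCA-948 0 were (11.3%). Their sum averaged 35.9 CPM in MCA-943 and 51.3 to 93.1 CPM in the other lines. Ackr4 had a mean of 6.44 CPM in MCA-969 against 0.129 to 1.24 elsewhere.

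Ifngr1, a chain of the interferon gamma receptor, had a mean of 177 CPM in MCA-943 against 48.2 to 71.6 CPM in the other lines and was called higher in all 4 comparisons (edgeR). Ifng itself was not tested, with line means of at most 0.279 CPM. The NF-kB targets and regulators Tnfaip3 and Nfkbiz ran otherwise, with their highest means in MCA-969 (482 and 440 CPM) and their lowest in MCA-948 (46.5 and 58.9 CPM). Of 12 inducers and their receptors 11 were tested. Of these, 5 were called higher (17.7% of all genes) and 0 lower (11.3%) in MCA-943 than in MCA-948, and 6 lower (19.8%) and 0 higher (9.64%) in MCA-948 than in MCA-970. Against MCA-969, MCA-943 had 4 higher (12.1%) and 0 lower (14.9%). The counts of MCA-943 were smaller against MCA-970, with 2 higher (12.6%) and 1 lower (14.8%), and against MCA-972, with 2 higher (12.2%) and 0 lower (13.4%). Tnf had a mean of 2.89 CPM in MCA-943 and 0.405 to 0.904 CPM elsewhere.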

How the data were processed

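The authors aligned the reads of the 30 tumors to GRCm38 with STAR 2.5.3a and counted them on genes with featureCounts, after duplicates had been collapsed by molecular identifiers, as the column names tell. What they deposited are raw counts per gene, not normalized. The strand setting is not stated in the sources used here. Symbols and positions came from GENCODE mouse release M21, promoters from RefSeq (28 of the 38 members matched).

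With the line as group, filterByExpr left 16862 genes, which were scaled by TMM and fitted in edgeR 4.0.16 (R 4.3.3) by a robust quasi-likelihood model of the 5 lines over all 30 tumors (biological coefficient of variation 0.221). P-values were adjusted by Benjamini-Hochberg over all genes tested, and a call needed an adjusted p under 0.05 and a log2 fold change of 1 or more in size. Log2 CPM used a prior count of 2. Total counts per tumor were 27745104 to 46537062. Letters were compared with the line as covariate. Correlations were tested two-sided by exact permutation in lines of at least 6 tumors. The scripts were tested on simulated data.

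The alternatives were DESeq2 1.42.0, limma-voom (limma 3.58.1), RLE factors, other filters and fold limits, the library series, a replicate block, the leukocyte score, and leaving out each tumor. Those on the 2 oppositely labelled MCA-969 tumors, on letters within single lines and on leaving out tumors there were chosen after seeing the data. Members with a mean of at least 10 CPM in a line were named with their tumor values, and those of at least 1 CPM with line means. Single tumors of lower members were singled out after their values were seen. The members and lists were chosen with earlier results of these data known. Some genes of the lists are not reported here.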

Additional observations from a re-analysis of the deposited data

Results flagged for a closer look

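In 98 combinations of a member and a line with a mean of at least 1 CPM, the tumor values were screened for a highest or lowest tumor that stood apart from the others by Dixon's criterion on log2 CPM. It marked 6, or 1.22 in 20, where chance gives about 1 in 20. Ccl21a was lowest in MCA-972 a-1, at 3.66 CPM against 8.73 to 10.2 in the other 3 tumors. Ccl25 was highest in MCA-969 W-2D, at 13.7 CPM against 5.83 to 7.70. Ccl5 was highest in MCA-970 W-2D, at 4.78 CPM against 3.17 to 3.45. Cxcl14 was lowest in MCA-969 W-2D, at 0.836 CPM. Cxcl16 was lowest in MCA-948 a-R, at 4.06 CPM against 6.26 to 9.21. Cxcl5 was highest in MCA-948 W-1D, at 16.4 CPM against 2.87 to 6.30. W-2D of MCA-969, which appears for 2 members, is among the tumors whose sensitivity label is opposite to that of their line.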

How the results depend on the processing

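Of 85 calls between pairs of lines among the 14 most abundant members, 85 kept their direction and side of the threshold with DESeq2, 83 with limma-voom, 84 with RLE factors, 79 with the leukocyte score, 60 with the library series as covariate and 2502 of 2550 when each tumor was left out, and none of these settings turned a direction. The number of members called moved by over 1.5 times in the following cases, for which the cause was not tested beyond the setting itself. For the series, the fold limit and the replicate block, the share of all genes called is not given beside these counts. They are therefore not a result about the members. MCA-943, MCA-970 and MCA-972 each lie in 1 library series only. With the library series it went from 14 to 9 for MCA-943 over MCA-972, from 17 to 3 for MCA-969 over MCA-948, from 16 to 10 for MCA-948 over MCA-970 and from 15 to 8 for MCA-948 over MCA-972. A fold limit of 2 on the log2 scale left 9 for MCA-943 over MCA-972, 5 for MCA-969 over MCA-948, 5 for MCA-969 over MCA-970, 4 for MCA-969 over MCA-972, 7 for MCA-948 over MCA-970 and 4 for MCA-970 over MCA-972. Letters within MCA-948 alone gave 2 members against 0 over the lines together. Whether the title codes pair tumors of different lines is not known. Over 29 pairs of such tumors with the same letter and code the correlation of deviations from the line means had a median of 0.02. It ran from -0.43 to 0.41 and passed 0.1 in 8, which cannot tell whether such tumors shared an animal. With letter and code as a replicate block, the count fell from 10 to 6 for MCA-969 over MCA-972 and from 9 to 5 for MCA-970 over MCA-972, Cxcl12 of MCA-970 over MCA-972 went from -1.14 to -0.56, 77 of the 85 calls were kept, and 8 of the 9 members of MCA-943 and 7 of the 7 of MCA-948 remained called against every other line.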
